A study of Mus musculus with 8 samples.

Results

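Chromatin accessibility was compared between suprabasal transit-amplifying cells (TACs) of growing mouse hair follicles and bulge stem cells of resting follicles, by ATAC-seq, an assay whose transposase places sequencing adapters where DNA is accessible. The units compared were sites, made by merging overlapping peaks of the 2 deposited peak lists after removal of the mitochondrial genome and chromosome Y. This gave 95581 sites, of 114956 obtained when the lists of all 4 populations of the series were merged. The bulge cells came from back skin of Lgr5-eGFP-ires-CreER mice at postnatal day 55, in the second resting phase (telogen), and were sorted as GFP+, CD34+, Itga6+ and Itgb1+. The suprabasal TACs came from back skin of K14-H2BGFP mice at postnatal day 30, in the growth phase (anagen), and were sorted as GFPlow, Itga6- and CD34-. The other 2 populations serve here only as further readouts. Hair germ cells (day 55, Lgr5-eGFP-ires-CreER) were CD34- but otherwise sorted like the bulge, and basal TACs (day 30, Lgr5-eGFP-ires-CreER) were GFP-, CD34-, Itgb1-high, P-cadherin+ and SCA1-. Both sexes were mixed in every sample. Age, hair cycle stage, reporter strain and sort gates all differ between suprabasal TACs and bulge, so their parts in a difference cannot be told apart. The reporters also set which cells could be collected: eGFP follows the Lgr5 gene in one strain, and the keratin 14 promoter drives the histone-GFP fusion in the other.

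The labels name 2 samples for each population, but 1 list was deposited for each, made from the samples together. There is therefore no spread between replicates, no test and no p-value in what follows, and every difference describes these lists. The bulge list rests on 24065469 fragments and the suprabasal TAC list on 47852893, which is 1.99 times as many. To set them on one scale, the highest pileup of a site, that is the largest number of fragments over 1 of its positions, was divided by the fragment total of its list, counted in M (24.1 M for the bulge and 47.9 M for suprabasal TACs). This value is called the scaled pileup. The lowest pileup listed was 10 fragments in the bulge (a scaled pileup of 0.416) and 15 in suprabasal TACs (0.313), so absence from a list means only that a site did not pass the peak caller there. Intervals given for shares cover counting error only.

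The hair follicle renews itself in cycles. Stem cells of the bulge stay largely quiescent through the resting phase. On activation, they and the hair germ below feed a proliferating matrix, whose TACs sit around the dermal papilla. As TACs move up and inward they commit to the concentric layers of the inner root sheath and the hair shaft, directed by WNT, BMP, Notch and hedgehog signals. LEF1, MSX, HOXC13, FOXN1, CUX1 and GATA3 are transcription factors known from the matrix and its descendants, whereas NFATC1, TCF7L1, LHX2, SOX9 and NFIB are known from the bulge. Open chromatin marks promoters and enhancers that proteins can reach, and it is not a measure of transcription.

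The promoters at which the lists parted are shown first, as 300-base windows from 250 bases before to 50 bases after a RefSeq transcription start (GRCm38.p6, the same assembly as mm10). These 6 were picked, after their values were seen, from the named genes whose window held a peak of 1 list only or changed more than 2-fold. They pair 3 genes of bulge and basal cells with 3 genes of the matrix, inner root sheath and hair. The sequences run in the direction of the gene. Capitals mark every match, on either strand, to 7 short motifs. These are the TATA box motif TATAAA, the promoter motif CCAAT, the TCF/LEF core written CTTTGA, the core of an NFI site written TTGGCA, the AP-1 motif TGANTCA, the GATA factor motif AGATAA and the forkhead motif TGTTTA. In the Col17a1 window the GATA match overlaps a CCAAT match read on the other strand. Capitals describe letters only and say nothing of a bound factor.
Cd34: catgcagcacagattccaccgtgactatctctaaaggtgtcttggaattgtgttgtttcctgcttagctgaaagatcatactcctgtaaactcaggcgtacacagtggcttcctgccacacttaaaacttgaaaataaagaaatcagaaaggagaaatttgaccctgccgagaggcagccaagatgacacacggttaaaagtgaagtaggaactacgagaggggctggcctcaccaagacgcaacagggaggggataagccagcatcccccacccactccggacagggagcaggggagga
Col17a1: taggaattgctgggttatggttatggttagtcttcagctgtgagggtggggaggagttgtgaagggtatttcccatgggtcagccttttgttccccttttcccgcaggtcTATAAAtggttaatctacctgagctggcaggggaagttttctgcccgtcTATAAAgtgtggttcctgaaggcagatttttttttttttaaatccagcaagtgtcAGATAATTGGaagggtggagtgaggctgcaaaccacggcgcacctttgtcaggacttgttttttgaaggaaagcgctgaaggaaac
Prlr: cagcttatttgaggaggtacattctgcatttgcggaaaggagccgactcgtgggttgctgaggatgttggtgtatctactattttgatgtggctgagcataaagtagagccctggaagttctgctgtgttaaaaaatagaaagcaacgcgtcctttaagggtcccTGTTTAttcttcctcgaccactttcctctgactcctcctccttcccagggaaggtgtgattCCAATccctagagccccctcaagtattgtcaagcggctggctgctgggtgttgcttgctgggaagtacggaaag
Cux1: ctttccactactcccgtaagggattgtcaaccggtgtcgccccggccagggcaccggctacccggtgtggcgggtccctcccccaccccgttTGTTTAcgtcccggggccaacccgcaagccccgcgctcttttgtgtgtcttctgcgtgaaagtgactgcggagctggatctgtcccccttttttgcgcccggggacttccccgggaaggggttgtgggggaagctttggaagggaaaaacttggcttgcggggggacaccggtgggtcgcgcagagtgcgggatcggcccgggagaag
Padi3: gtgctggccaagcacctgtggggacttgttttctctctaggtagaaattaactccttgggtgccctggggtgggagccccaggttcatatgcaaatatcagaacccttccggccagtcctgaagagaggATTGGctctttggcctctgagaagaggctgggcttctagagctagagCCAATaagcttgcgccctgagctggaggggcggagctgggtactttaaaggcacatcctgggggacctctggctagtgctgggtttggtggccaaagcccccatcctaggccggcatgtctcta
Tgm3: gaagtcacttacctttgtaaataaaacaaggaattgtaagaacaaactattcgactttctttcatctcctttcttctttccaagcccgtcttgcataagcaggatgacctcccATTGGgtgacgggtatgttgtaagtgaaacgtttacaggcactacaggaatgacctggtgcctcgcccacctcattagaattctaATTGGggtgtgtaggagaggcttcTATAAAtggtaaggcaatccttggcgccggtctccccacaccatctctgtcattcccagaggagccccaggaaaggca

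Cd34, the surface protein that marks mouse bulge cells and was part of both sorts, has its window at chr1:194938571-194938870 on the plus strand. The highest pileup reaching it was 7.19 in the bulge and 0.564 in suprabasal TACs, 12.7-fold lower, and none of the 7 motifs occurs in it. Col17a1 encodes a hemidesmosomal collagen that anchors basal and bulge cells. Its window, chr19:47691993-47692292 on the minus strand, stood at 6.11 in the bulge and at 1.09 in suprabasal TACs, 5.62-fold lower, and holds 2 TATA matches. Prlr encodes the prolactin receptor. Its window, chr15:10176988-10177287 on the plus strand, was reached by a bulge peak of 5.61 only. The suprabasal TAC peak at that promoter begins farther downstream.

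The other 3 windows had a suprabasal TAC peak and no bulge peak. Cux1, a homeodomain factor of the matrix and inner root sheath, has its listed start at chr5:136565932-136566231 on the minus strand, where the suprabasal TAC pileup was 3.36. Padi3 makes a peptidylarginine deiminase that modifies trichohyalin in the inner root sheath. Its window at chr4:140810599-140810898 on the minus strand reached 2.61 and holds 2 CCAAT matches. Tgm3, a transglutaminase that crosslinks the inner root sheath and hair cuticle, reached 4.95 at chr2:130012090-130012389 on the plus strand, in a window with 1 TATA and 2 CCAAT matches.

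These windows are exceptions among promoters. Of 21045 windows for 17274 genes, 11347 (53.9%) held a peak of both lists, 757 (3.6%) a suprabasal TAC peak only and 528 (2.51%) a bulge peak only. The TATA motif was in 12.7% of all windows, in 5.78% of those with both peaks, in 13.2% of suprabasal-TAC-only windows and in 10.4% of bulge-only windows. The NFI motif was in 13.1% of all windows, in 14.8% of suprabasal-TAC-only and in 19.1% of bulge-only windows. The TCF/LEF core was in 14.4% of all, 16.5% of suprabasal-TAC-only and 12.9% of bulge-only windows. CCAAT was in 38.5% of all windows, against 32.6% and 31.8% in those classes. For the forkhead motif the shares were 11.5% of all, 8.72% and 10.8%, for GATA 9.68%, 6.74% and 10.0%, and for AP-1 7.04%, 6.34% and 8.52%. Windows with peaks of both lists thus held the TATA motif less often than those of either list alone.

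Across the genome the suprabasal TAC list did not simply contain the bulge list or the reverse. Both lists held 37334 of the 95581 sites (39.1%, Wilson 95% interval 38.8% to 39.4%). A further 33697 sites, 35.3% of all, were in the suprabasal TAC list only, and 24550, 25.7%, in the bulge list only. The larger number on the suprabasal TAC side depended on how a peak was accepted. It was 20328 against 21087 when only peaks with a −log10 q of at least 10 were kept, and 26443 against 26737 with equally many peaks in each list. When a site also had to be tall enough to be listed at the other library's depth, it was 21285 against 24550. No bulge-only site was low enough to fail that demand, so this setting could lower the suprabasal TAC number only. Under each of these rules, each population had at least 20328 sites without an accepted peak in the other. With the stricter q, such a site may still hold a weaker peak of the other list.

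The sites of 1 list were shorter, lower and farther from gene ends than the shared ones. Shared sites had a median length of 1097 bp, and 12202 of them (32.7%) lay within 1 kb of the end of a protein-coding gene. Sites of suprabasal TACs only had a median length of 457 bp, and 2071 (6.15%) lay that close to a gene end. Sites of the bulge only had a median of 522 bp, and 1015 (4.13%) did. Median scaled pileup was 3.41 in the bulge and 1.63 in suprabasal TACs at shared sites. It was 1.45 at bulge-only sites, with a 90th percentile of 5.32, and 0.752 at suprabasal-TAC-only sites, with a 90th percentile of 1.92.

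The lists of the other 2 populations played no part in defining the classes. The hair germ list separated them clearly, and the basal TAC list only slightly. Of the bulge-only sites, 14550 (59.3%) held a hair germ peak and 8911 (36.3%) a basal TAC peak. Of the suprabasal-TAC-only sites, 2828 (8.39%) held a hair germ peak and 15139 (44.9%) a basal TAC peak. Thus the bulge-only sites were found more often in the other resting-phase list, and the suprabasal-TAC-only sites in the other growth-phase list. The hair germ list rests on 11053351 fragments and the basal TAC list on 30824845, so the shares are to be compared down a list rather than between lists. The classes also differ in height, with a median scaled pileup of 1.45 at bulge-only and 0.752 at suprabasal-TAC-only sites. The lowest scaled pileup listed was 0.543 in hair germ and 0.389 in basal TACs. The part of height in these shares was not tested. Neither list held 17842 (52.9%) of the suprabasal-TAC-only sites or 7750 (31.6%) of the bulge-only sites. Shared sites were nearly all in the other lists too, 90.3% in hair germ and 90.7% in basal TACs, and 31426 of them (84.2%) in all 4.

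**Figure D1:**
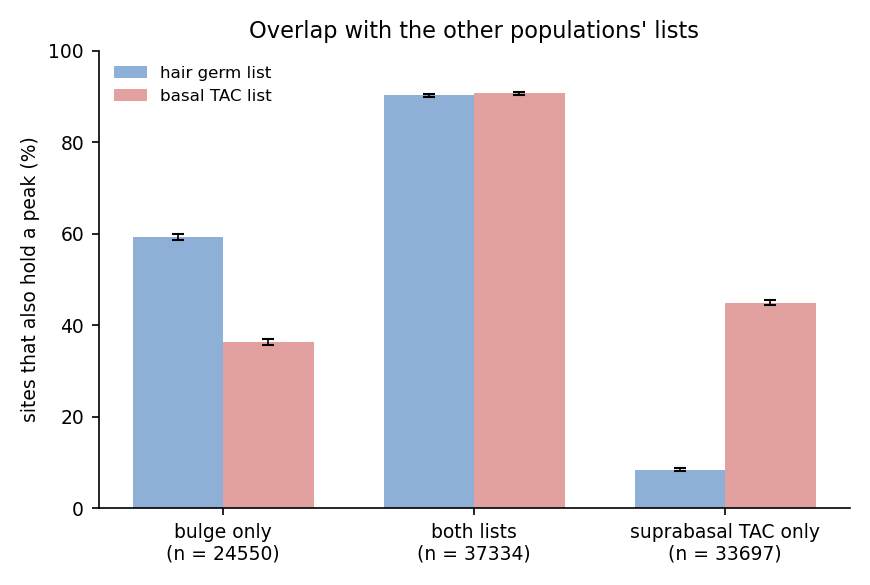
Share of sites (%, vertical axis) in the bulge list only, in both lists and in the suprabasal TAC list only that also held a hair germ peak (blue) or a basal TAC peak (red), with Wilson 95% intervals. The hair germ share falls from 59.3% of bulge-only sites to 8.39% of suprabasal-TAC-only sites, while the basal TAC share is 36.3% and 44.9%.

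At most shared sites the scaled pileup was lower in suprabasal TACs, while 6083 of 37334 (16.3%) were higher there. The median log2 ratio of suprabasal TAC to bulge was -1.07, a 2.09-fold lower value, and the middle part of the sites ran from -1.64 to -0.38. Only 1691 sites (4.53%) were at least 2-fold higher in suprabasal TACs, against 19716 (52.8%) at least 2-fold lower. Library measures moved with this shift. Median fold enrichment of peaks over local background was 4.79 in suprabasal TACs and 7.48 in the bulge, and the headers give fragment sizes of 187 bp and 224 bp. Their part in the shift was not tested. On the fold enrichment scale the median ratio was -0.46. Values below that are called relative have the median of -1.07 subtracted, so that a relative value of 1 is 2-fold above what a typical shared site showed. Folds between printed pileups, such as 14.4-fold higher, are not centred. On that scale 6578 sites (17.6%) were at least 2-fold above the median and 5409 (14.5%) at least 2-fold below it.

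**Figure D2:**
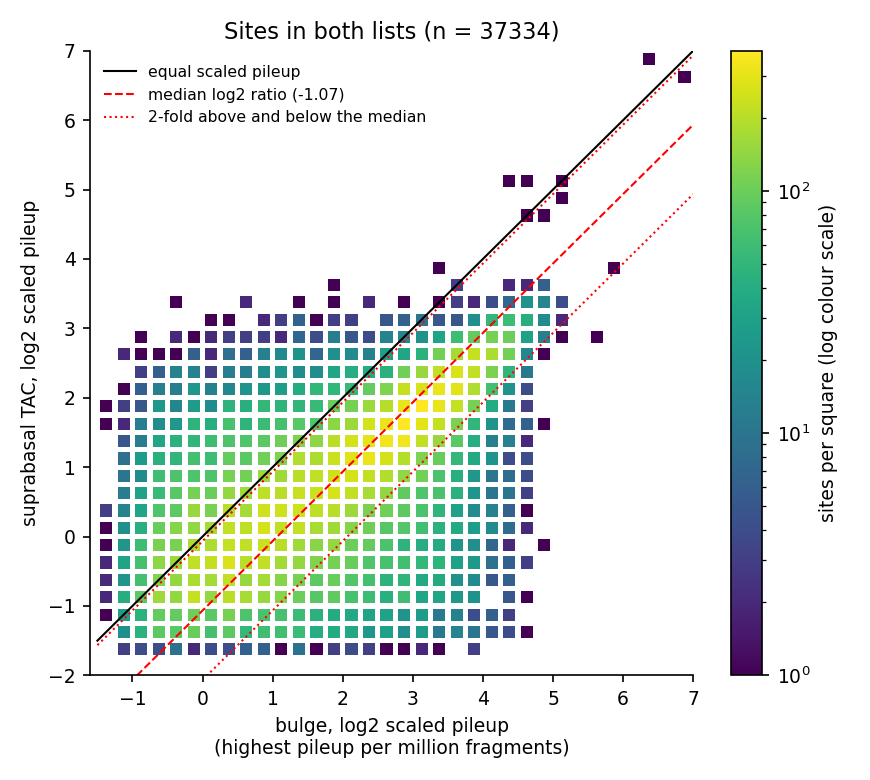
Scaled pileup of the 37334 shared sites on log2 axes, bulge on the horizontal and suprabasal TAC on the vertical axis, as counts of sites per square on a log colour scale. Most sites lie below the solid line of equal signal and around the dashed line at the median log2 ratio of -1.07, and dotted lines mark 2-fold above and below that median.

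Distal sites varied more than sites at gene ends. Within 1 kb of a gene end, 8.07% of shared sites were at least 2-fold above the median and 6.57% at least 2-fold below it, compared with 22.3% and 18.3% of sites farther away. The other populations differed between these classes too, with medians taken over the sites that held a peak in the list concerned. Of the sites above, 79.0% held a hair germ peak and 91.1% a basal TAC peak, and of those below, 98.8% and 89.8%. Sites 2-fold above the median had median scaled pileups of 1.08 in the bulge, 1.90 in hair germ, 2.27 in basal TACs and 1.88 in suprabasal TACs. Sites 2-fold below it had 6.77 in the bulge, 5.70 in hair germ, 2.79 in basal TACs and 0.836 in suprabasal TACs. The ratio shares the bulge pileup as its denominator, and the median log2 ratio was -0.10 in the 25% of shared sites with the lowest bulge pileup and -1.58 in the 25% with the highest. Of the lowest 25%, 48.5% were 2-fold above the median and 0.04% 2-fold below, and of the highest 25%, 0.2% and 27.0%. Counts of such sites at a gene therefore depend on how high its bulge pileups were.

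The site with the highest ratio lay near Notch1, the receptor through which hair-lineage TACs respond to Notch ligands. It is chr2:26539585-26541994, 35.8 kb outside the gene, with 0.540 in the bulge, 1.45 in hair germ, 1.39 in basal TACs and 7.79 in suprabasal TACs, a 14.4-fold higher scaled pileup. Both basal TACs and hair germ were low there, so the signal was high in suprabasal TACs alone among the 4 lists. Others of the 10 highest ratios were next to Bmp7 (chr2:172788810-172790222, 0.582 to 5.35), Edar (chr10:58632038-58632932, 0.540 to 5.04), Gli2 (chr1:118890641-118891989, 0.499 to 4.41) and Zfp750 (chr11:121519074-121519880, 0.416 to 3.64). BMP7 is a secreted ligand, EDAR the ectodysplasin receptor of hair placodes, GLI2 the main hedgehog-responsive factor of the follicle, and ZFP750 a regulator of epidermal differentiation. The remaining ones were next to Anapc13, Ptger3, Tamm41, Cldn10 and Bckdha, 8.75-fold to 14.4-fold higher over all 10.

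The lowest ratios were steeper only as uncentred folds. Relative to the median the 2 extremes were alike, 4.92 at the highest site and -4.86 at the lowest. At chr2:133076557-133079270, with no protein-coding gene within 100 kb, the scaled pileup was 22.9 in the bulge, 14.9 in hair germ, 0.908 in basal TACs and 0.376 in suprabasal TACs, a 60.9-fold lower value. Next to Ednra, an endothelin receptor gene, chr8:77754517-77755858 stood at 19.3 in the bulge and at 0.418 in suprabasal TACs. Sites near Tcf12, Plekha2, Gmds, Cdkal1, Adgrg6 and Gprin2 and 2 more with no gene within reach were between 44.4-fold and 50.0-fold lower. All 10 were also low in basal TACs compared with the bulge, with 0.519 to 5.74, and stayed high in hair germ, with 7.51 to 27.3.

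To describe genes, each site was given to its nearest protein-coding gene, within 100 kb. Of 16315 genes with a site, 7319 (44.9%) had more suprabasal-TAC-only than bulge-only sites and 3620 (22.2%) had more bulge-only ones. Over all sites with a gene, suprabasal TACs held 59.7% of those in 1 list only. This share is the background for each gene list below. It was 50.6% with the stricter q and 48.4% when absence was scaled for depth. Scaling for depth could remove suprabasal-TAC-only sites only, so it could not raise a share. Of shared sites with a gene, 17.2% were 2-fold above the median and 13.7% 2-fold below, which is the background for counts of such sites. It is a rough one, because these shares change with bulge pileup. Among the 25% of shared sites with the lowest bulge pileup they were 48.5% and 0.04%, and among the highest 25%, 0.2% and 27.0%. Of 416 entries in 22 lists, 415 were in the gene table, and a gene with no site is named only as such. Members and lists were chosen with earlier results of these data known, so their shares are descriptions and give no independent support. The number of sites per gene grows with the length of the region it covers, and nearest does not mean regulated.

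Genes known from the bulge had most of their one-list sites in the bulge. All 27 members of that list had sites, 136 in suprabasal TACs only and 282 in the bulge only. The suprabasal TAC share was thus 32.5% (exact 95% interval 28.1% to 37.3%), below the 59.7% of all genes, and 20 members had more bulge-only sites, 4 had fewer and 3 had as many. At their 207 shared sites the median was -0.30 relative to all shared sites, with 29 sites 2-fold above and 68 sites (32.9%) 2-fold below. Without Foxp1, the member with most one-list sites, the share was 25.3%.

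Among bulge transcription factors, Nfatc1, which holds bulge cells in quiescence, had 18 bulge-only, 11 shared and 5 suprabasal-TAC-only sites. Its tallest site, chr18:80582995-80584018, had 19.7 in the bulge, 12.5 in hair germ, 1.07 in basal TACs and 2.63 in suprabasal TACs. Inside the gene, chr18:80654144-80657383 went from 12.3 to 1.07. Tcf7l1, a TCF factor that represses WNT targets in stem cells, had 6 bulge-only and 4 suprabasal-TAC-only sites, and its 12 shared sites had a relative median of -1.01. One of those, inside the gene at chr6:72768901-72770644, went from 7.65 to 0.439. Nfib, an NFI factor of the bulge, had 39 bulge-only sites, the highest number in the list, with 33 shared and 12 in suprabasal TACs only. Zbtb16, a zinc finger repressor, had 23 bulge-only, 8 shared and 1 suprabasal-TAC-only site.

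The 4 members with more suprabasal-TAC-only sites were all transcription factors: Foxp1, Nfia (17 against 7), Lhx2 (6 against 4) and Tcf7l2 (15 against 14). Nfia, like Nfib an NFI factor, thus lay on the opposite side. Sox9, which bulge and outer root sheath cells need, had 7 bulge-only and 4 suprabasal-TAC-only sites, but its 4 shared sites ran both ways, with a relative median of 1.23. The site at the gene, chr11:112781080-112783015, went from 5.94 in the bulge to 1.25, while chr11:112681036-112683184, outside the gene, went from 2.29 to 3.95. Foxp1, a forkhead gene, had 44 suprabasal-TAC-only sites against 11 bulge-only and 30 shared ones, the reverse of the list as a whole.

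Several secreted and surface proteins of the bulge list were also on the bulge side by one-list sites. Grem1 and Tgfb2 had as many of each kind, and Angptl7 had none of either. Their shared sites leaned to the bulge, with relative values of -1.91 at the only one of Grem1 and -3.18 at the only one of Angptl7. The relative median was -0.60 at the 4 of Tgfb2. Sfrp1, a secreted WNT antagonist, had 17 bulge-only sites and 1 suprabasal-TAC-only site, and all 4 of its shared sites were more than 2-fold below the median. The shared site at the gene, chr8:23410806-23412442, had 15.0 in the bulge, 14.6 in hair germ, 2.73 in basal TACs and 1.34 in suprabasal TACs. The tallest bulge-only one, chr8:23484948-23486719, had 12.9 in the bulge and 2.82 in basal TACs. Prlr had 26 bulge-only sites, 1 shared site and 1 in suprabasal TACs only. Its tallest, inside the gene at chr15:10311364-10312375, had 14.7 in the bulge, 10.1 in hair germ and 3.80 in basal TACs. Postn, which encodes the matrix protein periostin, had 10 sites, all in the bulge only, with its highest at 5.98. Lrig1, an inhibitor of growth factor receptors known from stem cells of the upper follicle, had 17 bulge-only sites and 1 in suprabasal TACs only.

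Genes that the sort or the reporters used check the labels, and Lgr5 and Cd34 are also members of the bulge list. At Lgr5, the WNT pathway receptor gene whose locus carries the reporter in the bulge strain, 14 sites were in the bulge only, 7 were shared and none was in suprabasal TACs only. The site chr10:115549806-115550702 had 13.4 in the bulge, 11.5 in hair germ, 6.46 in basal TACs and 1.67 in suprabasal TACs. At Cd34, 5 sites were in the bulge only, 4 shared and 2 in suprabasal TACs only. Of its shared sites, chr1:194877583-194880220 went from 10.6 to 1.63, but chr1:194975966-194977413 only from 9.10 to 5.75.

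The integrin genes Itga6 and Itgb1, whose proteins hold basal cells to the basement membrane, had 8 and 6 bulge-only sites against 4 and 0 in suprabasal TACs only. At the Itgb1 start, chr8:128684894-128686565 had 13.2 and 4.14, a relative value of -0.60, which is within 2-fold of a typical shared site. Krt14, whose promoter drives the reporter of the suprabasal TAC strain, had 1 bulge-only, 3 shared and 3 suprabasal-TAC-only sites. Its tallest site, chr11:100207401-100210146, had 8.89 in the bulge, 11.8 in hair germ, 4.70 in basal TACs and 0.940 in suprabasal TACs. Fragments of a transgene that carries this promoter would be counted at the same place, and their number was not tested. Ly6a, the gene of SCA1, had 1 suprabasal-TAC-only site of 0.606, and Cdh3, the gene of P-cadherin, had 4 bulge-only, 8 shared and 5 suprabasal-TAC-only sites.

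The wider group of outer root sheath and basal genes had 72 suprabasal-TAC-only and 91 bulge-only sites, a share of 44.2%, with 32 of 106 shared sites 2-fold below the median and 19 above it. Sox9, with 7 bulge-only and 4 suprabasal-TAC-only sites, and Col17a1 are also members of the bulge list, so the 2 lists are not separate. Other bulge members, among them Lgr5, Sfrp1, Tcf7l1, Bmp6 and Lrig1, are counted again in the pathway lists below. Dst, which links keratin to hemidesmosomes, had 21 bulge-only and 7 suprabasal-TAC-only sites. Col17a1 had 11 and 3, and Barx2, a homeobox gene, 14 and 3. Krt5, the keratin partner of Krt14 in basal cells, had chr15:101712505-101714625 at its start, with 12.3 in the bulge and 2.30 in suprabasal TACs. Members were evenly divided, 9 with more bulge-only sites, 9 with fewer and 2 with as many. Among those with fewer, Trp63, the master factor of stratified epithelium, had 18 suprabasal-TAC-only sites, 4 bulge-only and 19 shared, and the laminin gene Lama3 had 11 and 4.

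Matrix regulators, a list chosen like that of the bulge genes, ran the other way. Their 27 members had 188 suprabasal-TAC-only and 37 bulge-only sites, a share of 83.6% (78.1% to 88.1%), and 21 members had more of the former, 3 fewer and 3 as many. The share was 79.9% with the stricter q and 79.7% with absence scaled for depth, against 50.6% and 48.4% of all genes. At 150 shared sites the relative median was 0.62, with 53 sites (35.3%) 2-fold above and 17 below. Of the 188 sites, 92 held a basal TAC peak. Lef1, Hoxc13, Gata3, Wnt5a, Wnt10a, Wnt10b, Bmp2, Bmp4, Shh, Grhl3 and Ovol1 are also counted in other lists below.

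Lef1, the DNA-binding partner of β-catenin in the matrix, had 22 suprabasal-TAC-only sites, 5 shared and none in the bulge only. The tallest, inside the gene at chr3:131181230-131182709, had 2.16 in the bulge, 1.36 in hair germ, 4.80 in basal TACs and 6.62 in suprabasal TACs. The nearby chr3:131177300-131179266 was absent from bulge and hair germ, with 2.50 in basal and 4.30 in suprabasal TACs. Its start site, chr3:131110308-131112686, was open in every list, with 4.53, 6.51, 2.56 and 3.51 in the same order. The gene thus differed at its distal sites more than at its start.

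Msx1 and Msx2, homeobox genes downstream of BMP signals, had 11 and 6 suprabasal-TAC-only sites and none in the bulge only. At the Msx1 start, chr5:37823423-37825195 stood at 6.40 in the bulge and at 5.62 in suprabasal TACs, with 6.24 and 6.55 in hair germ and basal TACs. Its highest suprabasal-TAC-only site, chr5:37894289-37896780, lay 69.7 kb from the gene with 4.16, against 1.23 in basal TACs and no hair germ peak. One Msx1 site ran against the rest, since chr5:37784740-37786036 went from 8.48 to 0.648. For Msx2, chr13:53531584-53534192 went from 2.99 in the bulge to 7.71, while the start, chr13:53472023-53473464, had 15.3 and 6.69, a relative value of -0.12.

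Cux1 had 31 suprabasal-TAC-only sites, 8 shared and 1 in the bulge only. The tallest, chr5:136605078-136607048, lay 37.5 kb outside the gene with 1.63 in hair germ, 8.95 in basal TACs and 6.71 in suprabasal TACs. Foxn1, the forkhead gene mutated in nude mice, had 5 suprabasal-TAC-only sites, 2 shared and 1 in the bulge only. Its start site, chr11:78384821-78387168, went from 1.25 to 2.61. Hoxc13, which switches on hair keratins, had 15 suprabasal-TAC-only sites and none in the bulge only, yet its 5 shared sites had a relative median of -0.38. The lowest of them, chr15:102895277-102896414, stood at 4.11 in the bulge and at 0.355 in suprabasal TACs. Gata3, needed for the inner root sheath, was nearly even, with 4 bulge-only, 13 shared and 5 suprabasal-TAC-only sites. Trps1 had 22 suprabasal-TAC-only sites but a relative median of -0.71 at 10 shared ones.

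**Figure D3:**
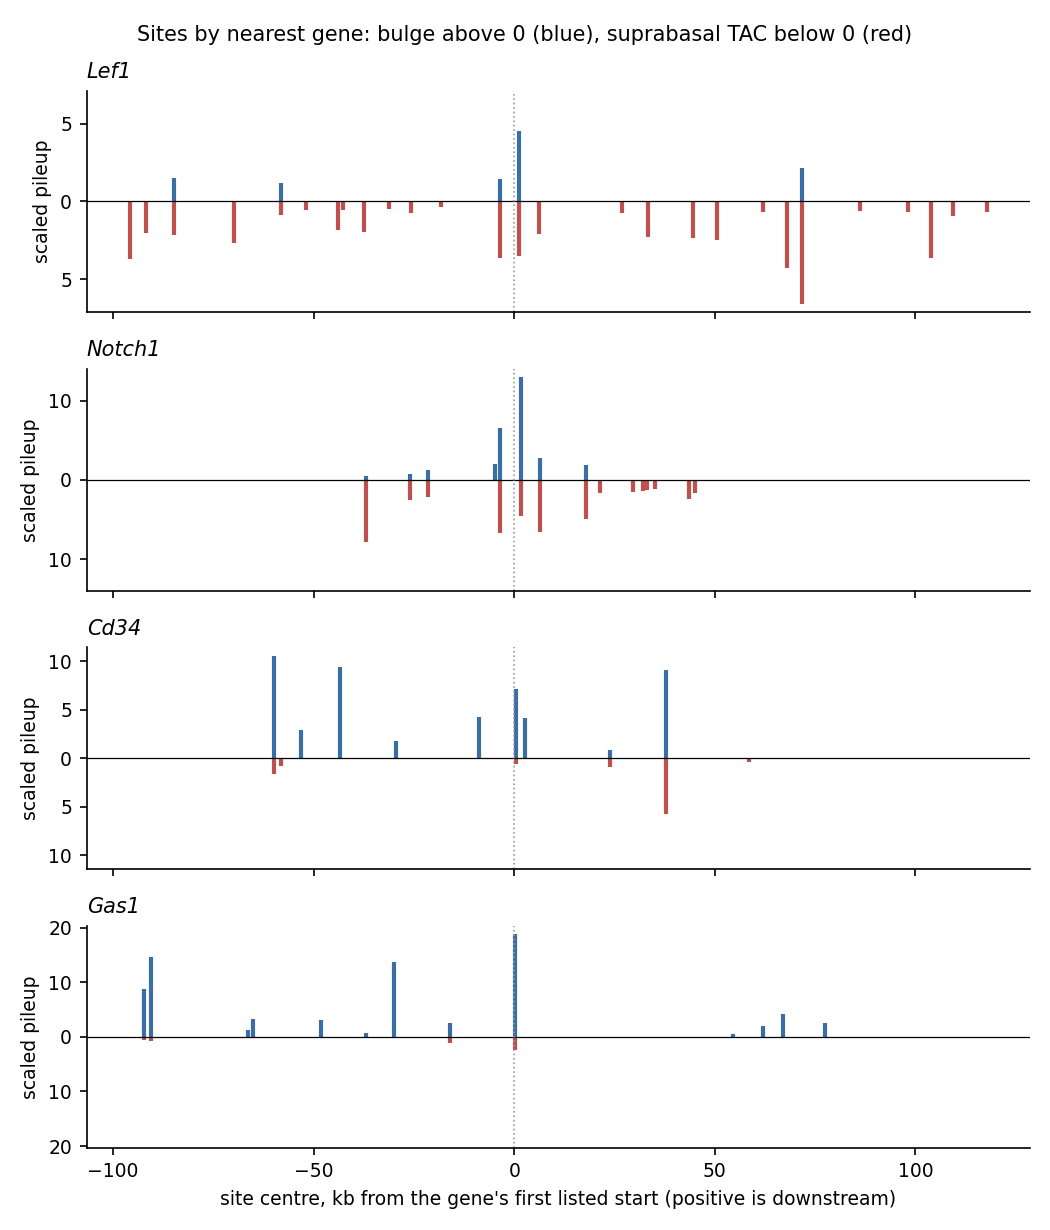
Scaled pileup (vertical axes) of every site assigned to Lef1, Notch1, Cd34 and Gas1 against the distance of its centre from the gene's first listed start in kb (horizontal axis), with bulge as blue lines above 0 and suprabasal TAC as red lines below 0. Lef1 and Notch1 have many red lines with little or no blue above them, but blue is the taller at their start sites. At Cd34 and Gas1 blue is mostly the taller, though 2 Cd34 sites are in suprabasal TACs only.

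Genes of the inner root sheath had 53 suprabasal-TAC-only and 10 bulge-only sites, a share of 84.1% (72.7% to 92.1%), and 72.2% with the stricter q. Of 16 members, 14 had more suprabasal-TAC-only sites, none had more bulge-only sites and 2 were even. At their 38 shared sites the relative median was 0.07, close to a typical shared site, with 11 sites 2-fold above and 6 below. Krt27, a type I keratin of the sheath, had 3 sites, all in suprabasal TACs only. Its tallest, at chr11:99346668-99349117 inside the gene, was among the 10 tallest of all suprabasal-TAC-only sites, with 1.18 in hair germ, 4.64 in basal TACs and 7.36 in suprabasal TACs. Krt28 next to it also had 3 sites in suprabasal TACs only, with 2.95 at its start (chr11:99374487-99375552) and 2.34 in basal TACs. Krt25 stood at 1.16 in the bulge and at 2.84 in suprabasal TACs at its start. A suprabasal-TAC-only site inside that gene, chr11:99320795-99321562, had 3.18 and no peak in any other list. Shared sites of some members leaned to the bulge instead. The only one of Krt71, a gene with 3 suprabasal-TAC-only sites, had a relative value of -1.09. Relative medians were -0.92 at the 5 of S100a3 and -0.33 at the 5 of Crnn, against 0.81 at the 2 of Krt72.

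Among the enzymes that harden the sheath, Padi3 had 5 sites, all in suprabasal TACs only, and Padi1 had 6 such sites, 2 shared and 1 in the bulge only. At chr4:140812849-140814791, the shared site inside Padi1, the values were 1.79 in the bulge, 2.17 in hair germ, 5.90 in basal TACs and 6.06 in suprabasal TACs. Tgm3 had 12 suprabasal-TAC-only sites, 3 shared and 3 in the bulge only. Tchh, which encodes trichohyalin, had 6 suprabasal-TAC-only sites and 2 shared ones, and the shared ones, such as chr3:93443700-93445657 with 5.28 and 2.59, kept the typical ratio.

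Hair shaft genes had a share close to that of the inner root sheath and matrix lists, 85.1% (74.96% to 92.3%), from 63 suprabasal-TAC-only and 11 bulge-only sites. It was 81.4% without Hoxc13, which the matrix list also holds, 78.8% with the stricter q and 82.5% with absence scaled for depth. Of its members, 17 had more suprabasal-TAC-only sites, 2 had fewer and 2 as many, and Krtap3-1 was nearest to no site. The relative median at 29 shared sites was 0.08, with 9 sites 2-fold above and 2 below. Krt35, an early hair keratin, had 2 sites, both in suprabasal TACs only, and chr11:100095947-100096570 inside the gene had 4.39 against 0.552 in basal TACs and no hair germ peak. Krt36 had 3 sites, of 1.44 to 2.26, found in none of the other 3 lists. Krt82, a cuticle keratin, had 3.28 at chr15:101544316-101544929 against 0.811 in basal TACs. Padi4, a deiminase gene kept in this list, had 5 sites, all in suprabasal TACs only. Krt31 and Krt32 were exceptions, with 1 and 2 bulge-only sites and none in suprabasal TACs only. Dsg4, a desmosomal cadherin of the shaft, had 9 suprabasal-TAC-only, 3 shared and 2 bulge-only sites. Keratins and keratin-associated proteins lie in tight clusters of similar genes, so a site may serve a neighbour, and reads that fit several copies are uncertain.

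**Figure D4:**
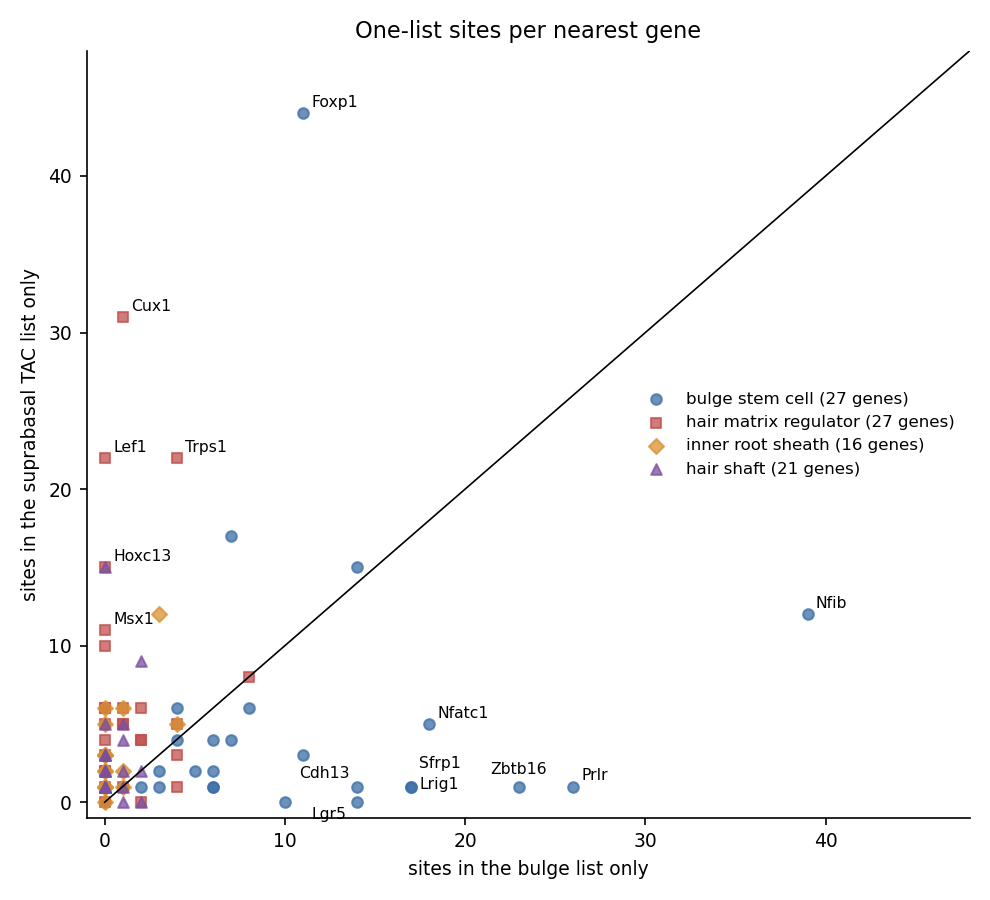
Number of sites in the suprabasal TAC list only (vertical axis) against the number in the bulge list only (horizontal axis), 1 point per nearest gene for the bulge, matrix, inner root sheath and hair shaft lists, with the line of equal numbers. Genes with a difference of at least 11 are named. Cux1 (31 against 1) and Lef1 (22 against 0) lie along the vertical axis, Prlr (1 against 26) and Lgr5 (0 against 14) along the horizontal one, and Foxp1 stands apart from the other bulge genes.

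Over whole clusters the picture was milder. The type I keratin cluster had 45 suprabasal-TAC-only, 24 bulge-only and 28 shared sites (65.2% of one-list sites), and the type II cluster had 31, 19 and 29 (62.0%). The epidermal differentiation complex had 30, 25 and 30 (54.5%). Of the Hox clusters, Hoxc had 10 suprabasal-TAC-only sites against 1 in the bulge only, and 6 of the 10 shared sites of Hoxd were 2-fold above the median with none below. Hoxa had 9 suprabasal-TAC-only sites against 3, with 2 of 16 shared sites 2-fold above and 3 below. Hoxb had 7 and 6.

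WNT ligands and receptors had 130 suprabasal-TAC-only and 76 bulge-only sites, a share of 63.1%, close to the 59.7% of all genes. Among ligands, Wnt3 had 7 suprabasal-TAC-only sites, 2 shared and none in the bulge only, with 0.831 in the bulge and 2.82 in suprabasal TACs at chr11:103794843-103797126. Wnt5a had 5 and Wnt4 7 suprabasal-TAC-only sites, against 0 and 2. Wnt7b and Wnt5b, in contrast, had 9 and 8 bulge-only sites against 3 and 2. Among receptors, Fzd10 had 13 suprabasal-TAC-only sites and none in the bulge only, and Lgr5 14 bulge-only sites and none of the other kind.

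Effectors of the pathway had a share of 72.7%, from 117 and 44 sites, which was 63.9% with absence scaled for depth. Lef1, Gsk3b (15 suprabasal-TAC-only sites and no bulge-only one) and Tle3 (12 and 1) led it. Inhibitors and feedback genes had 61.7%, with members on both sides. Znrf3, a membrane ubiquitin ligase induced by WNT signals, had 18 suprabasal-TAC-only and 2 bulge-only sites, and 7 of its 8 shared sites were 2-fold above the median. Its bulge pileups were low, 15.8 summed over 10 sites. At chr11:5426420-5429025 the pileup was 0.416 in the bulge, 1.45 in hair germ, 2.60 in basal TACs and 2.84 in suprabasal TACs. Axin2, another feedback gene, had 8 of 12 shared sites 2-fold above the median, and Rnf43 4 of 6, but the feedback gene Nkd1 had a relative median of -0.48. The secreted antagonists Sfrp1, Dkk3 and Sostdc1 were on the bulge side, with 17, 6 and 5 bulge-only sites against 1, 1 and 0. Wif1 and Sfrp5, also secreted antagonists, were not, with 1 and 0 against 4 and 2, and Dkk2 was even. Dkk1 was nearest to no site.

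BMP and TGF-β genes had a share of 62.3%, again near the background, with contrasts between members. Bmp4, a ligand of the matrix and dermal papilla, had 6 suprabasal-TAC-only sites, none in the bulge only, and all 5 shared sites 2-fold above the median. The bulge pileups of those 5 were low and summed to 6.40. In the lowest 25% of shared sites by bulge pileup, 48.5% were above. The Bmp4 start site, chr14:46389946-46391742, had 1.45 in the bulge, 0.995 in hair germ, 4.96 in basal TACs and 6.79 in suprabasal TACs, 4.67-fold higher. Bmp6, a ligand known from quiescent bulge cells, ran the other way, and chr13:38344644-38346979 at its start stood at 12.5 in the bulge and at 2.72 in suprabasal TACs. The antagonist genes Fst and Nog had 9 and 3 bulge-only sites and none in suprabasal TACs only, and Gdf10 8 and none. The intracellular transducers Smad2 and Smad3 had 12 and 13 suprabasal-TAC-only sites against 2 and 4.

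Notch genes had a share of 69.0%, from 98 and 44 sites, and the relative median of 110 shared sites was 0.30. At Notch1, 6 of 7 shared sites were 2-fold above the median, 7 sites were in suprabasal TACs only and 1 in the bulge only. Its start site, chr2:26500577-26503836, was not among the 6, with 13.0 in the bulge, 13.0 in hair germ, 4.25 in basal TACs and 4.49 in suprabasal TACs, a relative value of -0.46. That site merges several peaks, and the peaks that reach the 300-base window at the listed start reached 13.0 in the bulge but 2.95 in suprabasal TACs, 4.40-fold lower and -1.07 relative to the median. Inside the gene, chr2:26485299-26486607 went from 1.91 to 4.93. At Notch2, with 11 suprabasal-TAC-only sites and 1 bulge-only site, chr3:98056462-98057673 had 0.873 in the bulge, 1.09 in hair germ, 6.55 in basal TACs and 5.35 in suprabasal TACs. Rbpj, the DNA-binding factor of the pathway, had 11 suprabasal-TAC-only and 6 bulge-only sites, a difference that turned to -1 with the stricter q.

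Hedgehog genes had a share of 57.1%, and FGF and EGF receptor genes 55.3%. Gas1, a hedgehog co-receptor, had 9 bulge-only sites and none in suprabasal TACs only. Its start site, chr13:60175814-60178722, had 18.8 in the bulge, 16.6 in hair germ, 8.95 in basal TACs and 2.34 in suprabasal TACs, and chr13:60267144-60268996 went from 14.6 to 0.669. Shh, the ligand, had 6 suprabasal-TAC-only sites and 1 bulge-only site. Fgf5, which ends the growth phase, had 6 sites, all in suprabasal TACs only, of at most 1.13, and each was taller in basal TACs, with 3.37 to 5.09.

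**Figure D5:**
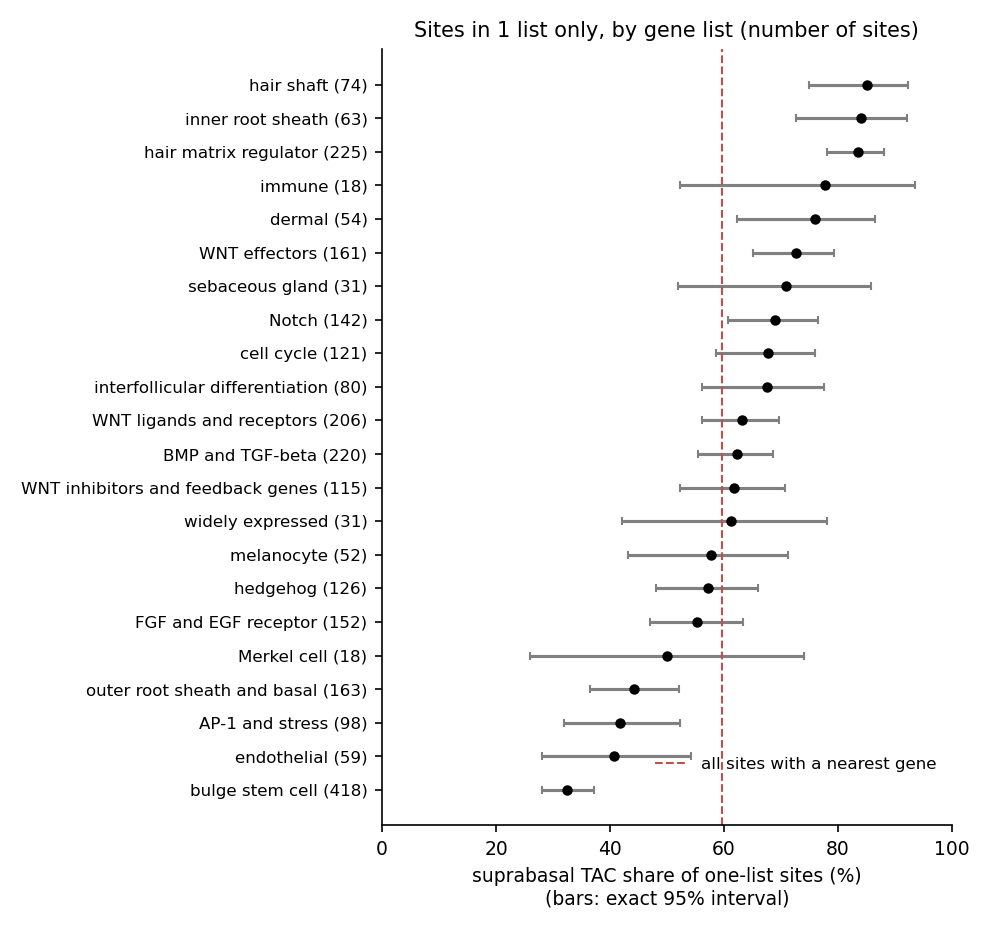
Suprabasal TAC share (%, horizontal axis) of the sites held by 1 list only, for each gene list, with exact 95% intervals and the number of such sites in brackets. The dashed line is the 59.7% of all sites with a nearest gene. Hair shaft, inner root sheath and matrix lists lie between 83.6% and 85.1%, and the bulge list at 32.5%.

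Cell cycle genes had 82 suprabasal-TAC-only and 39 bulge-only sites (67.8%), but 11 members had more of the former, 5 fewer and 15 as many. Many replication and mitosis genes, among them Ccna2, Ccnb2, Pcna, Mcm2, Top2a, Plk1 and Bub1, had 1 site only, in both lists, with relative values from -0.33 to 0.50. Differences were at Ccnd2 (13 and 4), Cdk6 (12 and 2) and E2f3 (9 and 1). At E2f3, chr13:30011948-30013586 had 0.995 in hair germ, 6.42 in basal TACs and 5.45 in suprabasal TACs. The start of the same gene, chr13:29984671-29986960, stood at 27.0 in the bulge and at 8.74 in suprabasal TACs, a relative value of -0.56. Myc had 11 and 10, and 5 of its 9 shared sites were 2-fold below the median, such as chr15:62043551-62044559 with 13.6 and 0.690.

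Genes of interfollicular differentiation, which the hair layers partly share, had a share of 67.5% and a relative median of 0.66 at 75 shared sites, with 27 sites 2-fold above and 7 below. Among its transcription factors, both shared sites of Zfp750 were 2-fold above the median, as were 7 of 12 at Cebpb, 5 of 8 at Grhl3 and 2 of 6 at Cebpa. AP-1 and stress genes had 41 suprabasal-TAC-only and 57 bulge-only sites (41.8%), of which Creb5 alone had 11 and 22. Genes expressed in most cells had 61.3% of 31 one-list sites and a relative median of -0.20 at 38 shared ones.

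Markers of other skin cells were read in the same way. Sebaceous gland genes had 22 and 9 sites (71.0%), dermal genes 41 and 13 (75.9%), melanocyte genes 30 and 22 (57.7%), immune genes 14 and 4 (77.8%), endothelial genes 24 and 35 (40.7%) and Merkel cell genes 9 and 9 (50.0%). The dermal share was 53.1% with the stricter q, the melanocyte share 86.2% without Mitf, and the Merkel cell share 83.3% without Piezo2. The sites were mostly low. Of the dermal genes, Twist2 had 10 suprabasal-TAC-only sites of at most 1.09 and Dcn 9 of at most 1.38, and Col3a1 and Lum had none. Among melanocyte genes, Dct had 10 suprabasal-TAC-only sites, the tallest with 3.22, and Kit 7 with a start site of 2.84, while Tyr had none. Cd3g, Cd4 and Cd8a were nearest to no site. Endothelial members were evenly divided, 5 with more bulge-only sites and 5 with fewer. Vwf had 5 suprabasal-TAC-only sites and none in the bulge only. On the bulge side, Tek and Emcn had 8 and 6 bulge-only sites and none of the other kind. The Tek site at chr4:94725450-94726377 reached 12.1 in the bulge and 11.1 in hair germ. The part of other cell types in these lists was not tested.

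Beyond the lists, the genes with the largest excess of suprabasal-TAC-only sites were Robo1 (45 against 2), Foxp1, Cux1, Cwc22 (30 against 0), Baz2b (26 against 1), Gse1 (30 against 5), Sox5 (37 against 12), Csgalnact1 (29 against 5), Zfp618 (25 against 2) and Lef1. ROBO1 is a receptor for SLIT guidance proteins. Its start site, chr16:72662844-72664492, went from 4.40 to 7.84, and chr16:72361337-72363120 was in basal (7.46) and suprabasal TACs (4.70) only. Cwc22 stood apart: its 30 sites had a median fold enrichment of 2.17 against 3.97 over all suprabasal-TAC-only sites, and 3 of them were in the basal TAC list and none in that of hair germ. The largest excess on the bulge side was at Nfib (39 against 12), Hmcn1 (26 against 1), Prlr, Dpyd (24 against 0), Trabd2b (32 against 8), Tenm3 (29 against 7), Zbtb16, Adgrv1 (23 against 3), Adgrl3 (23 against 4) and Palld (25 against 6). At Hmcn1, which encodes the extracellular protein hemicentin 1, chr1:150959060-150960405 went from 20.2 to 1.15. These 20 genes had a median span of 366 kb, against 23.2 kb of all genes with a site.

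Among 1836 genes with at least 5 shared sites, the highest median log2 ratios, not centred, were those of Rassf6 (1.83), Bpifc (1.49), Notch1 (1.23), Kif26a (1.22), Cux1 (1.21), Csnk1e (1.204), Stra6 (1.18), Btg3 (1.17), Tlk1 (1.15) and Tspear (1.10). At Rassf6, a member of the RASSF family, chr5:90646452-90648474 went from 0.914 in the bulge to 5.39. The values of Bpifc and Csnk1e turned to -0.27 and -0.42 with the stricter q. Among the lowest medians were those of Fam50b (-3.99), Manba (-3.78), Myof (-3.30), Fam167a (-3.27), Upb1 (-3.25), Ackr3 (-3.22), Tnc (-3.20), Zfp365 (-3.06) and Trabd2b (-2.94). Tnc encodes the matrix protein tenascin C, and Ackr3 an atypical chemokine receptor.

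The tallest suprabasal-TAC-only site lay inside Sfi1 (chr11:3131331-3133311), with 15.2 in suprabasal TACs and 5.74 in basal TACs. Its fold enrichment was 4.39, near the median of 3.97 for that class. The sites of rank 2 and 4 lay inside St14, the gene of the membrane protease matriptase, at chr9:31120184-31121508 with 9.22 and chr9:31126184-31127281 with 8.51. Basal TACs had 2.08 and 2.66 there. The site of rank 3, near Apcdd1, a WNT inhibitor gene linked to hair loss, had 8.80 at chr18:62963807-62965209, against 1.62 in basal TACs. The others were next to Thnsl2, Gtf2ird1, Krt27 and C2cd4c, and 2 had no gene within 100 kb. The tallest bulge-only sites were higher in scaled pileup, from 22.1 to 27.0, a scale on which a typical shared site was also 2.09-fold higher in the bulge. By fold enrichment the ranges overlapped, 8.33 to 14.2 against 4.39 to 10.9 for the suprabasal-TAC-only ones. These bulge-only sites lay near or in Svep1, Tenm3, Myof, Acsbg1, Nek7, Pkd1l1, Atp6v0e2 and Dlgap2, with 2 more away from genes. The Svep1 site, chr4:58031627-58033579, had 27.0 in the bulge and 15.8 in hair germ and was in neither TAC list. All 10 had a hair germ peak, of 10.2 to 20.3, while basal TACs had none at 3 of them and at most 7.43 at the rest.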

How the data were processed

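ATAC-seq libraries of 8 samples, 2 per population, were represented by 4 deposited peak lists, 1 per population, made by the authors on alignments pooled over samples. The submitters' processing notes list Bowtie2 2.2.9 and Picard among the tools and mm10 as genome build. Per the file headers, MACS 2.1.1.20160309 called the peaks from read pairs, keeping every duplicate in its input, with a q cutoff of 0.05, no control and a 10 kb local background. Whether reads were shifted for the transposase offset is not stated in the labels or headers used. The deposited values are the pileup (a signal of fragment coverage, not scaled for depth), the fold enrichment over local background (a ratio) and −log10 of the p-value and q-value, per the file headers.

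From these, chrM and chrY were left out (13 of 62333 bulge and 16 of 72153 suprabasal TAC peaks). Peaks overlapping by at least 1 bp were merged into sites, which was tested on simulated data. The highest pileup per list was divided by its fragment total in M, and log2 ratios were taken. Sites were assigned to the nearest of 21631 protein-coding RefSeq genes within 100 kb, and a member of a list or a gene is said to have a site only in that sense. Promoter windows and their sequences are RefSeq's (GRCm38.p6). Python 3.11.15 with numpy 2.4.6, pandas 2.3.3, scipy 1.17.1 and matplotlib 3.10.9 was used.

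Named genes are the 10 with the largest excess of one-list sites each way, the 10 with the highest and the lowest median ratio over at least 5 shared sites, the genes next to the 10 most extreme sites of each kind, and members of 22 gene lists with sort and reporter genes. A few of these are not reported here. The members and the lists were chosen with earlier results of these data known. With 1 list per group there is no test. Intervals for shares of sites are Wilson's and those for gene lists exact, at 95%. Alternatives tried were a −log10 q of at least 10, equal numbers of peaks, absence scaled for depth, overlap of 50% of the shorter peak, a gene distance of 20 kb, other centrings, fold enrichment in place of pileup, and leaving out single list members.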

Additional observations from a re-analysis of the deposited data

How the results depend on the processing

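No paired analysis was possible because each population has 1 pooled list, and for the same reason no replicate could be left out. With a −log10 q of at least 10, suprabasal-TAC-only sites numbered 20328, and shared sites at least 2-fold higher 721. With absence scaled for depth, suprabasal-TAC-only sites numbered 21285. Bulge-only sites stayed at 24550, because none was low enough to be removed by that setting. The median log2 ratio at shared sites was -1.07 as reported, 0 by construction when centred on all shared sites (6578 sites at least 2-fold higher and 5409 lower), and 0.12 when centred on shared sites within 1 kb of a gene end (7559 and 4665). On fold enrichment it was -0.46 (671 and 6801). The cause of these changes was not tested. The difference in one-list sites turned to -1 for Rbpj with the stricter q and to -1 for Ptprc within 20 kb. The median ratio turned to -0.27 for Bpifc and -0.42 for Csnk1e with the stricter q.

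Of the shares of the 22 gene lists, 96 values under the alternatives lay within the interval of the reported one and 14 moved outside it. For all genes the share was 50.6% with the stricter q and 48.4% with absence scaled for depth, against 59.7%. With absence scaled for depth it was 26.4% for bulge genes, 33.1% for outer root sheath and basal genes, 51.6% for WNT inhibitors, 44.9% for hedgehog genes and 28.8% for AP-1 genes. That setting could remove suprabasal-TAC-only sites only, so the direction of these changes was fixed in advance. Fragment totals set how low a listed pileup can be, so a site missing from a list may lie just under that list's limit.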
